A study of Pyrus x bretschneideri with 2 samples.

Results

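Messenger RNA of 6 genes whose deposited descriptions place them in auxin, cytokinin or brassinosteroid metabolism or response was compared in fruit tissue collected next to wounds of pears (Pyrus x bretschneideri). The genes were taken by identifier from a table of 45022 genes, and all 6 were present. They are Pbr031328 and Pbr031329 (both cytokinin hydroxylase-like), Pbr006164 (CYP734A1-like, a cytochrome P450), Pbr025676 (tryptophan aminotransferase-related protein 4-like), Pbr039194 (IAA-amino acid hydrolase ILR1-like 4) and Pbr026939 (ARG7-like). The control library came from pears given sterile distilled water and the other from pears given Meyerozyma guilliermondii, a yeast tested as a means to hold back rot in stored fruit. Both were kept at 20 °C for 3 days. Each group held 1 library, so no value has a replicate error, no test was made, and the differences compare these libraries and not the treatments. Whether a library pooled several fruit is not given in the sources used here.

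All 6 genes are among the 381 that the authors' deposited table lists as different between the libraries, and they were chosen from that list. That they differ is therefore how they were found and not a result. In that table the smallest absolute log2 fold change is 2.66 and the largest adjusted p-value is 0.00994. Of the 6 genes, those nearest to these limits are Pbr025676, with a deposited log2 fold change of -2.89, and Pbr026939, with 2.96. With 1 library per group, the authors' adjusted p-values cannot rest on replicates. Here and below they measure no spread between fruit or between repeat libraries. Genes just outside the limits carry no description in the table and were not analysed here. Since descriptions cover only those 381 genes, marker genes of fruit tissue could not be looked up to check the labelled tissue. In tissue of mixed cells, fewer cells of a type and less RNA per cell cannot be told apart.

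Auxin, cytokinins and brassinosteroids are plant growth hormones whose active amounts are set by synthesis, by conversion between forms and by inactivation. In Arabidopsis, cytokinin hydroxylases of the CYP735A family turn isopentenyladenine-type cytokinins into trans-zeatin types, and CYP734A1 inactivates brassinosteroids by hydroxylation. Tryptophan aminotransferases of the TAA1 family make the auxin precursor indole-3-pyruvate, and hydrolases of the ILR1 family free indole-3-acetic acid (IAA, the main auxin) from its amino acid conjugates. ARG7, first described in mung bean, belongs to the SAUR family of small proteins whose messages rise early after auxin.

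The 2 cytokinin hydroxylase-like genes had the most unequal levels of the set on the log2(FPKM + 1) scale, and the 5 enzyme genes were all lower in the yeast library while the auxin response gene ARG7-like was higher. FPKM values are fragments scaled to gene length and library size, so levels of different genes may be set side by side. Pbr031328 stood at 22.0 FPKM with water and 0.187 FPKM with the yeast, 118-fold lower. Pbr031329 stood at 28.0 FPKM in the water library against 0.309 in the yeast library, 90.9-fold lower. Among the 22603 genes that reached 1 FPKM in at least one library, ordered from the lowest ratio of yeast to water on the log2(FPKM + 1) scale, Pbr031329 was number 11 and Pbr031328 number 15. On that scale 678 of these genes (3.00%) were at least 2-fold lower in the yeast library and 750 (3.32%) at least 2-fold higher. The set had 5 genes past 2-fold on the lower side and 1 on the higher side. The choice of genes fixes these counts and nothing is read from them.

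**Figure D1:**
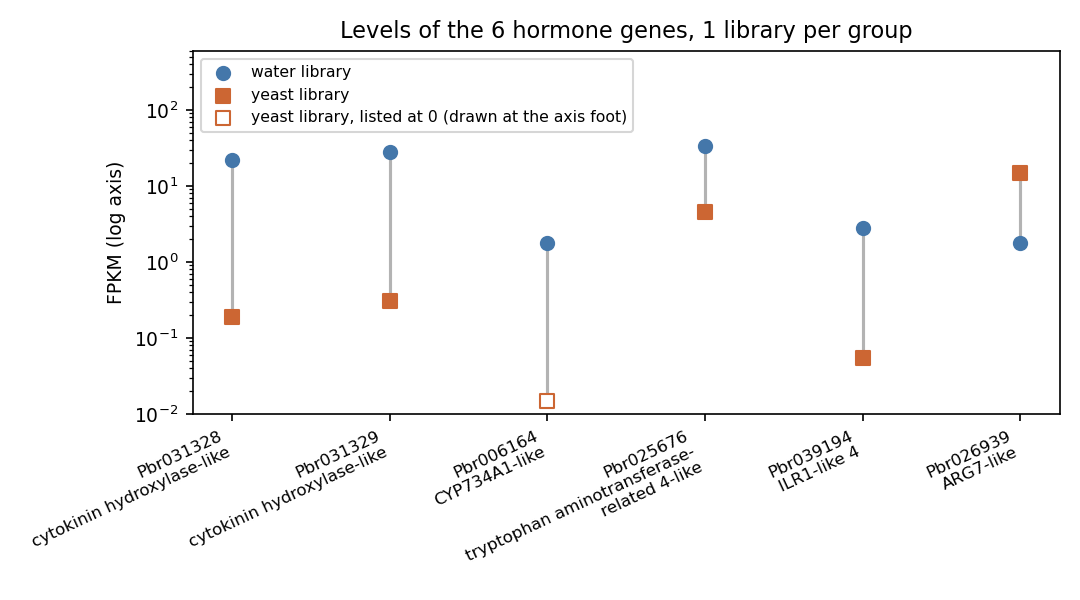
Levels of the 6 genes in FPKM on a log axis, with a circle for the water library and a square for the yeast library (1 library each, so no error bars). The square is below the circle for 5 genes, and only Pbr026939 has the higher value with the yeast; the open square marks Pbr006164, listed at 0 and drawn at the foot of the axis.

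Pbr031328 and Pbr031329 have consecutive identifiers and the same best-hit description, cytokinin hydroxylase-like, but their other descriptions differ. The best Swiss-Prot hit of Pbr031328 is the Arabidopsis cytokinin hydroxylase CYP735A1. That of Pbr031329 is the rice cytochrome P450 CYP734A6, of the family that inactivates brassinosteroids. The deposited functions of Pbr031329 also hold secologanin synthase activity, an entry it shares with Pbr006164 and not with Pbr031328. Whether Pbr031329 acts on cytokinins, on brassinosteroids or on neither is thus not settled by its descriptions. The authors' deposited table gives them close log2 fold changes, -6.85 for Pbr031328 (adjusted p-value 5.4e-11) and -6.87 for Pbr031329 (adjusted p-value 1.05e-09). The genes may share reads if their sequences are near-identical, and how the authors' counting would split such reads is not given in the sources used here.

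The third cytochrome P450 gene of the set, Pbr006164, is described as CYP734A1-like by its best hit, which is from apple, and by Swiss-Prot. It stood at 1.76 FPKM in the water library and was listed at 0 in the yeast library. A 0 in such a file can be a failed estimate, and 3 genes listed at 0 in both libraries were still called by the authors. No fold of Pbr006164 is thus given from the FPKM values alone, and its log2 ratios with a pseudocount depend on that 0 and on the pseudocount. The authors' deposited log2 fold change was -10.15, with an adjusted p-value of 5.1e-08. For genes at 0 in the yeast library, 65 of 84 deposited log2 values fell on steps that a whole number of reads would give, and on these steps, with 1 step taken as 1 read, Pbr006164 had 145 reads in the water library. Against a floor of 3 reads in the yeast library, and with a depth 1.05 times as great in the water library, this gene was at least 46.2-fold lower. The deposited value is not a bound, since it depends on the small number added to a count of 0.

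The 3 auxin genes differed in direction. Pbr025676, described as tryptophan aminotransferase-related protein 4-like, was the most abundant of the 6 in the water library at 33.1 FPKM, and had 4.54 FPKM in the yeast library, 7.30-fold lower. It was the only gene of the 5 lower ones that stayed above 1 FPKM with the yeast. Its protein domains are given as the alliinase domains and an aminotransferase of class I and II, the makeup of the TAA1 family. A role of this pear protein in auxin synthesis is not given in the files. The authors' deposited table has a log2 fold change of -2.89 and an adjusted p-value of 0.00434 for it.

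Pbr039194, whose best hits are the hydrolase ILR1-like 4, stood at 2.79 FPKM in the water library against 0.0540 in the yeast library, 51.7-fold lower. The Arabidopsis enzyme of that name, also known as IAR3, releases IAA from IAA-alanine and also cleaves conjugates of jasmonate. At the number of reads per FPKM found for the 65 genes on the steps (median 60.6, quartiles 27.1 and 89.6, which vary with gene length), 0.0540 FPKM would rest on about 3 reads in the yeast library (3.13 at the median, 1.40 and 4.63 at the quartiles). The size of its difference is thus poorly fixed. The same reckoning gives 10.8 reads for Pbr031328 in the yeast library (4.83 and 16.0 at the quartiles). For Pbr031329 it gives 17.9 (7.99 and 26.5 at the quartiles). The large folds of this pair thus also rest on few reads in the yeast library. The authors' deposited log2 fold change of Pbr039194 was -5.77, with an adjusted p-value of 9.85e-07.

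Pbr026939, the ARG7-like gene, stood at 1.78 FPKM in the water library against 14.8 in the yeast library, 8.30-fold higher. It was number 70 from the highest ratio among the 22603 genes. Its domain is given as auxin responsive protein, and its pathway entry as SAUR1. The authors' deposited table has a log2 fold change of 2.96 and an adjusted p-value of 0.00601 for it. Levels of the hormones were not among the measurements, and the RNA of a single SAUR gene does not measure auxin.

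**Figure D2:**
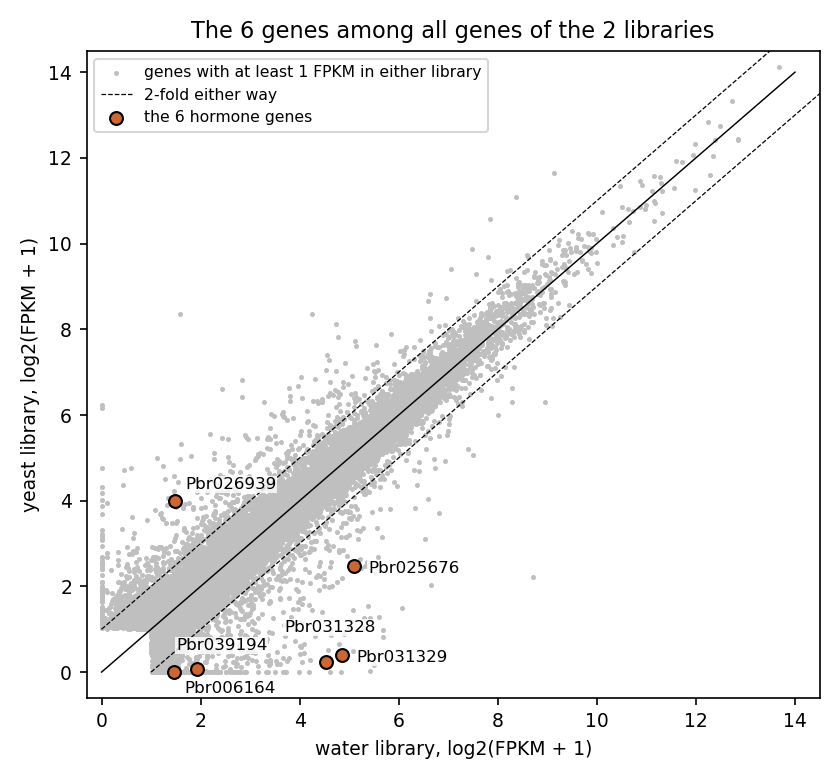
Each gray point is 1 of the 22603 genes that reached 1 FPKM in at least one library, with log2(FPKM + 1) of the water library across and of the yeast library upwards; the dashed lines mark 2-fold. The 6 hormone genes lie outside the dashed lines, 5 below and Pbr026939 above, while 3.00% of all points lie below and 3.32% above.

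The size of each difference depended on the scale more than on the library scaling. With a pseudocount of 1 FPKM the log2 ratio of yeast to water was -4.28 for Pbr031328, -4.47 for Pbr031329, -1.46 for Pbr006164, -2.62 for Pbr025676, -1.85 for Pbr039194 and 2.50 for Pbr026939. Without a pseudocount the ratio of Pbr039194 was -5.69, which put it nearer to the cytokinin hydroxylase-like pair (-6.88 for Pbr031328 and -6.51 for Pbr031329) than to Pbr025676 (-2.87). The pseudocount scale understates differences where the level is low in either library. Pbr006164 and Pbr039194 were low in both libraries. The cytokinin hydroxylase-like pair was low in the yeast library (0.187 FPKM for Pbr031328 and 0.309 for Pbr031329). Pbr026939 was low in the water library (1.78 FPKM).

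**Figure D3:**
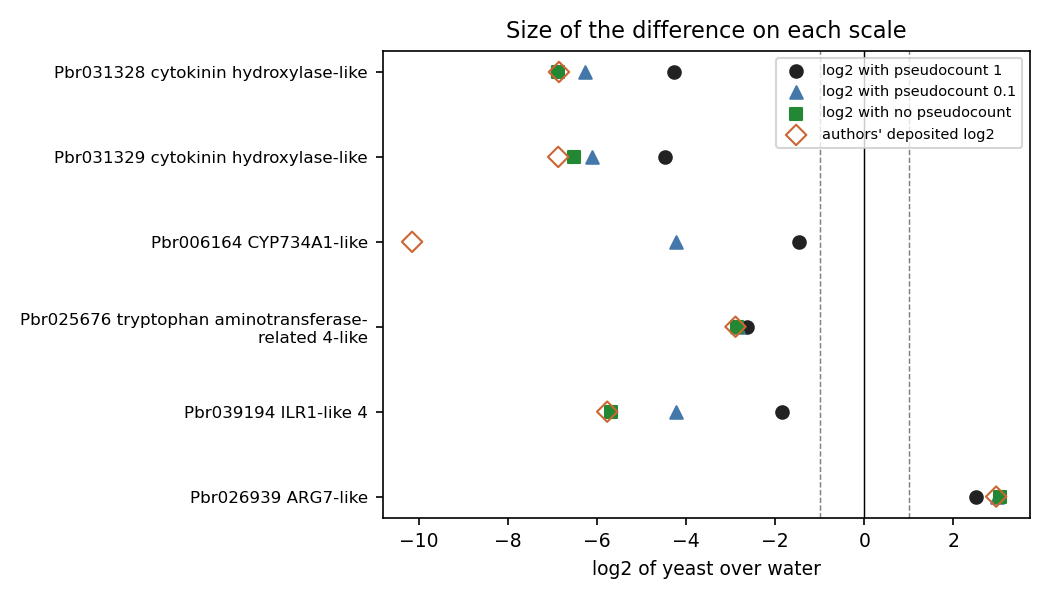
The log2 of yeast over water for each of the 6 genes, with a pseudocount of 1 FPKM (circles), of 0.1 FPKM (triangles), with none (squares) and as in the authors' deposited table (open diamonds); dashed lines mark 2-fold. No sign changes between the scales drawn (Pbr006164 has no value without a pseudocount), and a pseudocount cannot change a sign. The symbols of Pbr025676 lie close together while those of Pbr006164 run from -1.46 to -10.15.

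Other genes of the 3 hormones were sought by word patterns in all the deposited descriptions of the 381 genes. The auxin patterns matched 6 of them, 2 higher and 4 lower in the yeast library, among which are the 3 auxin genes of the set. The rest came in through their listed functions alone. They are the shikimate O-hydroxycinnamoyltransferase-like gene Pbr022425, an enzyme of lignin synthesis listed under auxin homeostasis (8.75 FPKM in the water library against 78.3 in the yeast library), and a pair of CYP94C1-like genes listed under response to auxin. CYP94C1 of Arabidopsis oxidises jasmonoyl-isoleucine. Pbr002629 had 3.33 FPKM in the water library and Pbr029505 had 2.26, and each had 0.0230 in the yeast library. That is below the 0.0540 FPKM of Pbr039194, reckoned above at about 3 reads, so it may rest on very few reads. Whether the identical value comes from shared reads or from such low counts was not tested.

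The cytokinin patterns matched 4 genes, 0 higher and 4 lower. Beside the pair of the set they held XLOC_001149, an assembled locus that is also described as cytokinin hydroxylase-like, with 9.20 FPKM in the water library and a listing at 0 in the yeast library. On the read steps it had 148 reads in the water library and was at least 47.2-fold lower. It carries no Swiss-Prot or domain description, and whether it overlaps Pbr031328 or Pbr031329 was not tested, as no coordinates were used. The fourth was the EP1-like secreted glycoprotein gene Pbr038206, listed under response to cytokinin (91.5 FPKM and 7.68). The brassinosteroid patterns matched 2 genes, Pbr031329 and Pbr006164, 0 higher and 2 lower, and the gibberellin patterns matched 0. The patterns for M20 amidohydrolases and for tryptophan aminotransferases each matched 1 gene, Pbr039194 and Pbr025676. In the authors' deposited table, 0.529% of all 45022 genes are called lower and 0.318% higher. Genes of these pathways that were not called have no description and were not counted, so these counts say nothing of the pathways as a whole.

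Cytochrome P450 genes, the enzyme class of 3 of the 6 genes, had 21 called genes, 8 higher and 13 lower in the yeast library, so that 61.9% were lower beside 62.5% of all 381 called genes. P450 genes that were not called have no description and were not counted. Of the higher ones, 6 are assembled loci described only as cytochrome P450 like_TBP, among them XLOC_008163 (0.368 FPKM in the water library against 25.3 in the yeast library) and XLOC_042461 (6.12 and 110.9). The others are CYP84A1-like, of the family that acts in syringyl lignin synthesis, and the more abundant of them, Pbr022142, had 1.52 and 15.8 FPKM. Without the like_TBP loci the list had 2 higher and 13 lower, a split made after the values were seen. The share of 61.9% thus depends on counting those loci. Whether they encode P450 enzymes was not tested. With a pseudocount of 1 FPKM the lowest ratios of the list were those of Pbr031329, the CYP749A22-like gene Pbr030004 (23.7 and 0.193 FPKM) and Pbr031328. In the authors' deposited table the order differs, with XLOC_001149 (-10.18) and Pbr006164 (-10.15), both listed at 0 with the yeast, at the low end. CYP734, CYP735, CYP714 and CYP749 families are relatives within 1 clan of plant P450 enzymes. Called genes with those family names outside the set, looked up after the values were seen, included the CYP749A22-like genes XLOC_008915 (15.5 and 0.174 FPKM) and Pbr030005 (6.07 and 0.0894) and the CYP714C2-like gene Pbr035365 (0.876 and listed at 0).

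**Figure D4:**
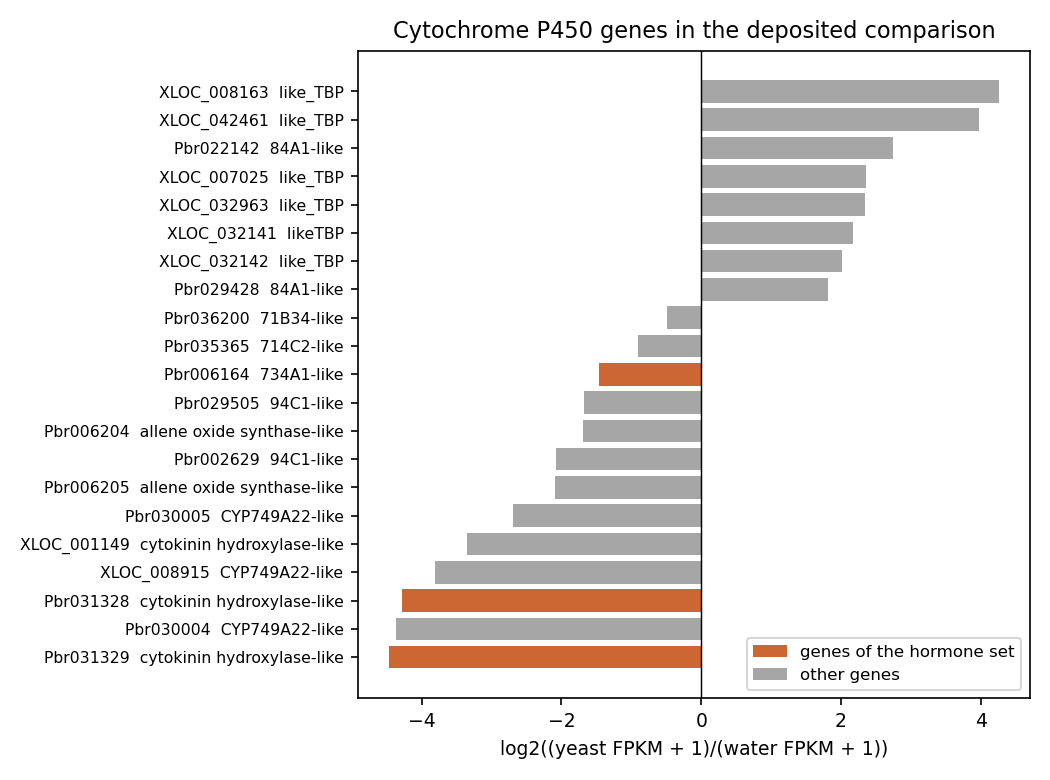
Bars give log2((yeast FPKM + 1)/(water FPKM + 1)) for the 21 cytochrome P450 genes of the deposited comparison, in color for the 3 genes of the hormone set and gray for the others. Bars of 13 genes point to lower levels with the yeast, those of Pbr031329 and Pbr031328 among the longest on this scale, and 6 of the 8 bars that point the other way are like_TBP loci.

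Genes with values most like each of the 6 were taken from 282 called genes with an informative description, by the distance between log2(FPKM + 1) values over the 2 libraries. With only 2 libraries such likeness says little beyond the level and the ratio. Nearest to Pbr031328 were the receptor-like kinase gene Pbr017074 (21.4 FPKM in the water library against 0.151 in the yeast library, distance 0.06), Pbr030004 (distance 0.10) and the peroxidase A2-like gene Pbr000687 (22.8 and 0.425, distance 0.27). The same 3 genes were nearest to Pbr031329, at distances of 0.27 for Pbr030004, 0.31 for Pbr000687 and 0.42 for Pbr017074. Nearest to Pbr025676 were the patatin-like protein 2 gene Pbr008727 (36.6 and 4.41, distance 0.15), the SRG1-like gene Pbr021636 (distance 0.29) and the ABC transporter G family gene Pbr019124 (distance 0.50).

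Pbr006164 lay within 0.01 of the 70 kDa peptidyl-prolyl isomerase-like locus XLOC_040249, the peroxidase N1-like gene Pbr026502 and the salutaridine reductase-like locus XLOC_030195, all listed at 0 with the yeast. Nearest to Pbr039194 were the 7-deoxyloganetin glucosyltransferase-like gene Pbr021709 (2.94 and listed at 0, distance 0.09), the bHLH92-like factor gene Pbr040944 (distance 0.12) and the allene oxide synthase-like gene Pbr006204 (2.72 and 0.155, distance 0.14), an enzyme of jasmonate synthesis. Nearest to Pbr026939 were the like_TBP locus XLOC_007025 (1.82 and 13.5, distance 0.13), the CYP84A1-like gene Pbr022142 (distance 0.17) and the BURP domain locus XLOC_020688 (1.27 and 11.9, distance 0.42).

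Genes with adjoining identifiers that reached 1 FPKM lay within 2-fold on the log2(FPKM + 1) scale. Of 30 genes within 3 numbers of a gene of the set, the set itself left out, 0 were called by the authors, beside 0.846% of all genes, and the 15 that reached 1 FPKM in at least one library had log2 ratios from -0.63 to 0.76, beside 93.7% of the 22603 genes within 2-fold. These shares do not set the neighbours apart from other genes. Pbr025675, the number before the tryptophan aminotransferase-related gene, stood at 11.8 FPKM in the water library against 11.3 in the yeast library. Pbr031327 and Pbr031330, on either side of the cytokinin hydroxylase-like pair, were listed at 0 in both libraries. Whether identifiers follow the order of genes on the chromosomes was not tested.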

How the data were processed

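Total RNA of 2 pear fruit samples went into TruSeq libraries (Illumina), per the labels' protocols. The authors deposited FPKM values for 45022 genes and a table of 381 genes with log2 fold changes of T02 (yeast) over T01 (water) and adjusted p-values (FDR), per the file headers. Per the submitters' processing notes, Bowtie 0.12.2 is the listed tool. Not given in the sources used here are the counter, genome build, annotation and comparison tool.

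Python 3.11.15 with pandas 2.3.3 computed log2((yeast + 1)/(water + 1)) over genes that reached 1 FPKM in at least one library, with a 2-fold size rule in place of a test. Depth is not in the files. For genes at 0 in 1 library, 2 to the absolute deposited log2 value, minus 1, was fitted to multiples of a single step (tolerance 0.02 reads), and a step was taken as 1 read, an assumption. Step ratios gave the relative depth of 1.05. The step for genes at 0 in the water library had weaker support, with 21 of 40 called genes on it. Such bounds cover counting error only. Both procedures were run on simulated data, with changes set only in genes of at least 5 FPKM in the water library. The simulated libraries differed by counting error and the set changes alone. The simulated steps were built from exact whole reads, with a step size inside the range searched. These runs check the code and do not measure how well either procedure works on the real libraries. Pbr006164, Pbr039194 and Pbr026939, below 5 FPKM in the water library, lie outside that setting.

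Named genes are the 6 genes, all called genes matched by the hormone patterns, the 3 highest and 3 lowest P450 genes and the 3 nearest genes each. Genes with adjoining identifiers and further P450 genes were added after the values were seen. The members and lists were chosen with earlier results of these data known. Alternatives changed the pseudocount, the library scaling, the filter and the description fields searched.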

Additional observations from a re-analysis of the deposited data

How the results depend on the processing

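No log2 ratio of the 6 genes changed sign with a pseudocount of 0.1 FPKM, with none (not computed for Pbr006164, listed at 0), with equal FPKM totals or with centring on the median ratio. That outcome was fixed in advance, since a pseudocount cannot change the sign of a ratio. Equal totals moved the median of all genes by -0.10 on the log2 scale, and centring moved it by -0.005. Shifts of that size could not turn the sign of genes chosen for large differences. With a pseudocount of 0.1 FPKM the log2 ratio became -4.22 for Pbr006164 and -4.23 for Pbr039194, and with none it became -6.88 for Pbr031328 and -5.69 for Pbr039194; the pseudocount weighs most on low values by construction. The genes at least 2-fold higher numbered 1347 with a pseudocount of 0.1 FPKM and 470 with a filter of 5 FPKM, and those lower 1100 and 382. With the best protein hit alone searched, the auxin list had 1 higher and 2 lower, and the brassinosteroid list 1 lower. With genes that reached 5 FPKM in at least one library, those lower numbered 1 in the auxin list, 1 in the brassinosteroid list, 7 in the P450 list and 0 in the M20 amidohydrolase list. Without genes listed at 0 the brassinosteroid list had 1 lower. No paired analysis was possible because each group held 1 library, and for the same reason no library could be left out. The values of Pbr006164 (listed at 0) and Pbr039194 (0.0540 FPKM) in the yeast library may rest on few or no reads.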

Other observations

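The deposited log2 fold change of Pbr031329 differed from the log2 ratio of its FPKM values by -0.36, while that of its neighbour by number, Pbr031328, differed by 0.03. Of 256 called genes above 0 in both libraries, 54 differed by at least 0.3 in either direction, and the quartiles of the difference were -0.09 and 0.12. XLOC_001149 had 16.1 reads per FPKM against 82.5 for Pbr006164, and fewer reads per FPKM go with a shorter gene model.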
